A study of Mus musculus with 18 samples.

Results

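Erythroid transcripts were measured in the forepaws of mice with and without arthritis. The members are 6 genes, taken as the rows of the deposited table with the symbols Hba-a1, Beta-s, Alas2, Slc4a1, Epb4.2 and Klf1, out of 18585 genes in all. Of these 6, 5 passed the filter on low values together with 13804 other genes, 13809 in all, and Hba-a1 did not. The mice were of the strain C57BL/6 and fell into 4 groups: Sema3b-/- mice with arthritis (5 libraries), wild-type (WT) mice with arthritis (5 libraries), Sema3b-/- controls (4 libraries) and WT controls (4 libraries). Sema3b encodes a secreted semaphorin, and the labels name no other allele, no agent that brought on the arthritis, and neither age nor sex. RNA came from the whole forepaw, so skin, muscle, bone, marrow and blood can all be in a library. The libraries were made by CEL-seq, a method that counts transcripts from their 3′ ends.

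Red cells carry oxygen on haemoglobin, which is built from alpha-globin and beta-globin chains that each hold a haem group. Hba-a1 encodes an alpha-globin, and Beta-s, now named Hbb-bs, encodes the adult beta-globin of the single haplotype of C57BL/6. Alas2 is the erythroid form of the first enzyme of haem synthesis. Slc4a1 (band 3) is the anion exchanger of the red cell membrane, and Epb4.2, now named Epb42, is the membrane protein 4.2 that binds band 3. Klf1 is a transcription factor that red cell precursors need to switch on globin and membrane genes. In adult mice red cells are made in the bone marrow and spleen, and young red cells in the blood still carry globin RNA.

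In both genotypes, the levels of the members did not separate arthritis from control: no member passed the test in any comparison, and every pair of groups overlapped for every member. The means were lower in arthritis in Sema3b-/- mice, where the 5 members tested had log2 fold changes of -2.45 to -1.45 (median -2.30). In WT mice they ran from -0.85 to 0.08 (median -0.42). The difference between these arthritis effects of the genotypes passed for none of the 5 members (limma adjusted p = 0.974). Over all genes tested, groups did not overlap for 13.2% (Sema3b-/- arthritis against control), 10.5% (WT arthritis against control), 4.2% (Sema3b-/- control against WT control) and 1.77% (Sema3b-/- arthritis against WT arthritis). The libraries of one group differed by far more, by up to 34.4-fold for Slc4a1, and the members were high and low together in the same libraries. Genes of marrow neutrophils, megakaryocytes and B cells varied with them. Among the members' levels and their ratios to Beta-s, one separated arthritis from control in both genotypes, the number of Alas2 reads per Beta-s read, which was lower in all 10 arthritis libraries than in all 8 control libraries; it was chosen after its values were seen, and its p did not pass adjustment.

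Total reads, recovered from the table, were 5468160 to 10083213 in Sema3b-/- arthritis, 6251174 to 19464892 in WT arthritis, 1732783 to 12816207 in Sema3b-/- control and 6086700 to 8179726 in WT control. Sema3b averaged 1.29 ± 1.48 normalized counts in Sema3b-/- arthritis against 44.4 ± 16.5 in WT arthritis (SD, n = 5 each), and 2.95 ± 3.03 in Sema3b-/- control against 55.9 ± 10.8 in WT control (SD, n = 4 each). Xist and Y-linked genes marked 4 female and 1 male libraries in Sema3b-/- arthritis, 1 female and 4 male in WT arthritis, 2 and 2 in Sema3b-/- control, and 4 female and 0 male in WT control. Every control title starts with MI, whereas 7 arthritis titles start with Joint and 3 carry RA after the animal name, so the arthritis and any preparation step that follows these titles cannot be told apart. The labels do not state that each library is a separate animal, and p-values then measure the spread between libraries, which may be technical.

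The genes lie on 5 chromosomes of GRCm38 (mm10) in the GENCODE M21 annotation. Hba-a1 is on chromosome 11 (chr11:32283511-32284465, plus strand) with 3 exons, and Beta-s on chromosome 7 (chr7:103826534-103828096, minus strand) with 3 exons. Alas2 is on chromosome X (chrX:150547375-150570638, plus strand) with 11 exons. Slc4a1 is on chromosome 11 (chr11:102348824-102366203, minus strand) with 20 exons. Epb4.2 is on chromosome 2 (chr2:121017891-121037072, minus strand) with 13 exons, and Klf1 on chromosome 8 (chr8:84901928-84905291, plus strand) with 3 exons. Since CEL-seq reads come from the 3′ end, the last 500 transcript bases were cut into overlapping stretches of 50 bases. Of the stretches of Hba-a1, 88.9% also occur in Hba-a2, the second adult alpha-globin gene. Of those of Beta-s, 64.7% also occur in Hbb-bt, its neighbour, and none of those of the other 4 members (0.0%) occur in another gene. Reads of both globins are therefore uncertain as to gene of origin, and no source used here says how the authors counted such reads.

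The members varied together, so the sequences before their starts are shown for what they share. RefSeq (GRCm38.p6) gave the 250 bases before its own start of 5 of the 6 members, Slc4a1 being the other. These RefSeq starts lie 42 to 195 bases inside the GENCODE spans given above, so each window overlaps the span of its gene. As background, GATA1 binds GATA motifs and KLF1 binds CACCC motifs in the promoters of red cell genes. Capitals mark 2 kinds of motif, each searched on both strands. The GATA motif was AGATAA or AGATAG, or the same letters with T in the first place, TGATAA or TGATAG. The CACCC motif was CCNCNCCC, where N is any base.
Hba-a1 (chr11:32283422-32283671, plus strand): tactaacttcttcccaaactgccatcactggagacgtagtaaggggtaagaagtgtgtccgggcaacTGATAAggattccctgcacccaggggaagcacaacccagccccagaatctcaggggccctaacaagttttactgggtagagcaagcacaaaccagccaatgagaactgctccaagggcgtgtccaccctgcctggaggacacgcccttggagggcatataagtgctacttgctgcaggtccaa
Beta-s (chr7:103827929-103828178, minus strand): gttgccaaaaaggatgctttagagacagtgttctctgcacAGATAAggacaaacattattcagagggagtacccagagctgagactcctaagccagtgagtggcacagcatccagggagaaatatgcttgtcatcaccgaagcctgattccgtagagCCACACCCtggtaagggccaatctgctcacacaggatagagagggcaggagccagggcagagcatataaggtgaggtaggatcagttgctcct
Alas2 (chrX:150547167-150547416, plus strand): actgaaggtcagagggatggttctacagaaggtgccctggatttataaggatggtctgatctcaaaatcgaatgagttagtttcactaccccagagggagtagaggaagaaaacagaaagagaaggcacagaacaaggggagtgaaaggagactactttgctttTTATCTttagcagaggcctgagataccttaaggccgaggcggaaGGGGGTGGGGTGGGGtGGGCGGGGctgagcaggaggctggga
Epb4.2 (chr2:121036878-121037127, minus strand): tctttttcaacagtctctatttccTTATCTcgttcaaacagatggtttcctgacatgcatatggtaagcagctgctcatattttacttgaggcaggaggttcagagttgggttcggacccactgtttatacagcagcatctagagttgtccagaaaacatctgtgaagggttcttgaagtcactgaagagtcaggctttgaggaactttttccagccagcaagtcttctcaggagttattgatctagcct
Klf1 (chr8:84901732-84901981, plus strand): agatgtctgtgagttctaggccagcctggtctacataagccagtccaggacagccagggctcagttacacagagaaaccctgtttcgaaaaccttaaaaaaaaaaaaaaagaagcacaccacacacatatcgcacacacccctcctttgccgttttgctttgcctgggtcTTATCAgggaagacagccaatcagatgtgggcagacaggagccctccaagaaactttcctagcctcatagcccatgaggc

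A GATA motif occurred once in each of the 5 windows, against 26.5% of 32851 RefSeq promoter windows of the same length. Counted from the RefSeq start, it lay 183 to 178 bases before that of Hba-a1 and 210 to 205 before that of Beta-s. In Alas2 it lay 86 to 81 bases before it, in Epb4.2 226 to 221 and in Klf1 80 to 75. The CACCC motif occurred in Beta-s, 93 to 86 bases before the start, and 4 times in Alas2 within 42 to 19 bases, where some matches overlap each other. It was found in 45.9% of all windows, and both motifs together in 8.2%. The matches are letters in a window and no measure of binding.

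Beta-s was the most abundant member. It had 76996, 24513, 9487, 54248 and 7266 normalized counts (reads divided by the authors' size factor) in the 5 Sema3b-/- arthritis libraries, and 30653, 80863, 75746, 6956 and 15823 in the 5 WT arthritis libraries. It had 72869, 170010, 48229 and 28175 in Sema3b-/- control, and 50165, 24649, 22459 and 20639 in WT control. The highest library was Sema3b-/- control 2 and the lowest WT arthritis 4, a range of 24.4-fold, and all 4 groups overlapped. These values rest on 8178 to 304297 reads per library, so counting error is small beside the spread.

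Alas2 had 384, 102, 37.2, 308 and 38.2 normalized counts in Sema3b-/- arthritis and 124, 393, 381, 18.7 and 62.7 in WT arthritis. It had 595, 1308, 482 and 243 in Sema3b-/- control and 439, 177, 183 and 146 in WT control. The same libraries were at the ends as for Beta-s, and the range was 69.9-fold. Alas2 rested on 22 to 2342 reads per library.

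Slc4a1 had 263, 127, 18.1, 181 and 7.64 normalized counts in Sema3b-/- arthritis and 65.1, 272, 199, 8.51 and 33.6 in WT arthritis. It had 376, 884, 357 and 93.5 in Sema3b-/- control and 233, 105, 121 and 60.5 in WT control. Its range of 115.7-fold over 18 libraries was wider than that of Beta-s or Alas2. Its partner Epb4.2 was near the floor in several libraries, with 31.1, 5.69, 1.01, 18.3 and 0 normalized counts in Sema3b-/- arthritis and 2.96, 18.3, 28.7, 6.80 and 9.51 in WT arthritis. It had 44.5, 96.1, 24.9 and 6.00 in Sema3b-/- control and 29.8, 4.51, 14.1 and 6.82 in WT control. Sema3b-/- control 2 was again highest for both membrane genes.

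Klf1 had 28.5, 17.1, 0, 38.3 and 0.695 normalized counts in Sema3b-/- arthritis and 7.39, 42.3, 23.0, 1.70 and 8.24 in WT arthritis. It had 44.5, 114.0, 38.0 and 17.99 in Sema3b-/- control and 23.2, 9.02, 22.5 and 9.38 in WT control. Sema3b-/- arthritis 3 had 0 reads, where 3 reads would be 3.02 normalized counts, and the groups overlapped. Hba-a1 had 0 to 4.36 normalized counts in Sema3b-/- arthritis, 0 to 5.23 in WT arthritis, 2.40 to 9.498 in Sema3b-/- control and 1.11 to 2.56 in WT control. No library held more than 17 Hba-a1 reads, against the 8178 to 304297 of Beta-s, and 3 libraries held 0. The 4 other globin genes in the table (Hba-x, Hbb-bh1, Hbb-y and Hbb-b2) together had at most 3.91 normalized counts in a library. The table has no row under the symbols Hba-a2, Hbb-bt or Beta-t, another symbol of Hbb-bt. The 6 members together took 0.0936% to 2.41% of the normalized counts of a library.

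**Figure D1:**
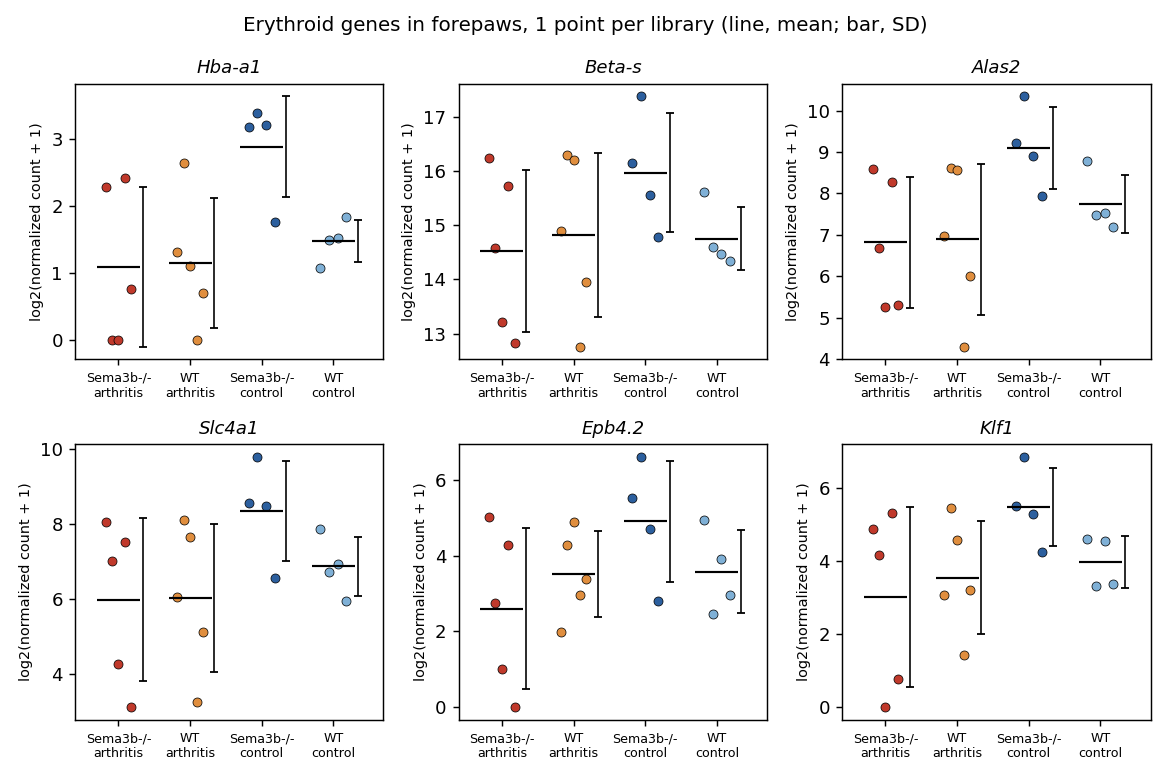
Log2(normalized count + 1) of the 6 erythroid genes, 1 point per library, in 4 groups of 5, 5, 4 and 4 forepaw libraries; lines are group means and bars SD, and the y axes differ and do not start at 0. Sema3b-/- control 2 is the highest library for all 6 genes, and the groups overlap in every panel.

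The arthritis effect was first asked in Sema3b-/- mice. All members had a lower mean in arthritis, and none passed the test. Alas2 averaged 173.9 ± 161.5 normalized counts in Sema3b-/- arthritis (SD, n = 5) and 657.2 ± 458.2 in Sema3b-/- control (SD, n = 4). Its log2 fold change, on the log2(normalized count + 1) scale of every fold change here, was -2.29 (SE 0.92, limma adjusted p = 0.116). Klf1 differed by -2.45 (SE 1.03, limma adjusted p = 0.127), Slc4a1 by -2.37 (SE 1.12, limma adjusted p = 0.180), Epb4.2 by -2.30 (SE 0.97, limma adjusted p = 0.127) and Beta-s by -1.45 (SE 0.83, limma adjusted p = 0.268). With limma 0 of 5 members were called at an adjusted p under 0.05, against 12.4% of the 13809 genes tested. The same count was 0 with edgeR and with DESeq2. At an unadjusted p under 0.05 limma had 3 of 5, Alas2, Epb4.2 and Klf1, against 28.5% of genes tested. The median of the 5 log2 fold changes was -2.30, against -0.01 over all genes tested. Hba-a1, fitted without the filter on low values, differed by -1.80 (SE 0.59, limma adjusted p = 0.0695). The fold changes in the authors' deposited table ran from -2.03 for Hba-a1 to -1.21 for Beta-s.

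In WT mice no member passed the test, and each log2 fold change was smaller than its SE. Alas2 had a mean of 195.7 ± 178.2 normalized counts over the 5 WT arthritis libraries and of 236.1 ± 136.1 over the 4 WT control libraries (SD), which is a log2 fold change of -0.85 (SE 0.92). Beta-s had 42008 ± 34246 over the 5 WT arthritis libraries and 29478 ± 13888 over the 4 WT control libraries (SD), a log2 fold change of 0.08 (SE 0.83). The log2 fold changes of Slc4a1, Klf1 and Epb4.2 were -0.84, -0.42 and -0.07, and limma adjusted p ran from 0.618 to 0.975 over the 5 members. The signs for Beta-s, Klf1 and Epb4.2 turned round under other settings, given with the processing. Limma called 0 of 5, with 0 of 5 at an unadjusted p under 0.05, against 4.21% and 21.2% of genes tested, and edgeR and DESeq2 called 0. Hba-a1 differed by -0.33 without the filter (SE 0.59, limma adjusted p = 0.818).

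Between genotypes, all 5 members had a higher mean in Sema3b-/- control than in WT control, with log2 fold changes of 1.22 (SE 0.87) for Beta-s, 1.36 (SE 0.97) for Alas2, 1.48 (SE 1.18) for Slc4a1, 1.33 (SE 1.02) for Epb4.2 and 1.51 (SE 1.09) for Klf1. Limma adjusted p was 0.913 to 0.926, and limma, edgeR and DESeq2 called 0 of 5, with 0 of 5 in limma at an unadjusted p under 0.05. Over all genes limma called 0.0145% here and 5.87% had an unadjusted p under 0.05. The group means were pulled up by Sema3b-/- control 2, whose Beta-s level was more than those of the other 3 libraries of its group together. With one library left out in turn, the lowest log2 fold changes were 0.75 for Beta-s, 0.945 for Alas2, 1.002 for Slc4a1, 0.764 for Epb4.2 and 1.05 for Klf1. Hba-a1 was 7.07 ± 3.18 normalized counts in Sema3b-/- control against 1.84 ± 0.594 in WT control (SD, n = 4 each), and differed by 1.41 without the filter (SE 0.63, limma adjusted p = 0.831). These Hba-a1 means rest on 2 to 17 reads per library in Sema3b-/- control and 1 to 3 in WT control. In Sema3b-/- control 1, 3 reads would be 12.1 normalized counts.

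With arthritis in both genotypes, the log2 fold changes of Sema3b-/- over WT ran from -0.90 (Epb4.2) to -0.04 (Slc4a1). Limma adjusted p was 0.833 to 0.996, and limma, edgeR and DESeq2 called 0 of 5, with 0 of 5 in limma at an unadjusted p under 0.05 (of all genes, 0.0217% and 8.97%). Under other settings the sign turned round for every member except Epb4.2. The difference between the arthritis effects of the genotypes was tested as an interaction. It ran from -2.23 (Epb4.2) to -1.43 (Alas2) with limma adjusted p = 0.974 for all 5 members. Limma called 0.0% of genes for the interaction, DESeq2 6 genes and edgeR 0, and 4.8% of genes had an unadjusted p under 0.05 in limma. The comparisons share libraries and are not independent of each other.

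**Figure D2:**
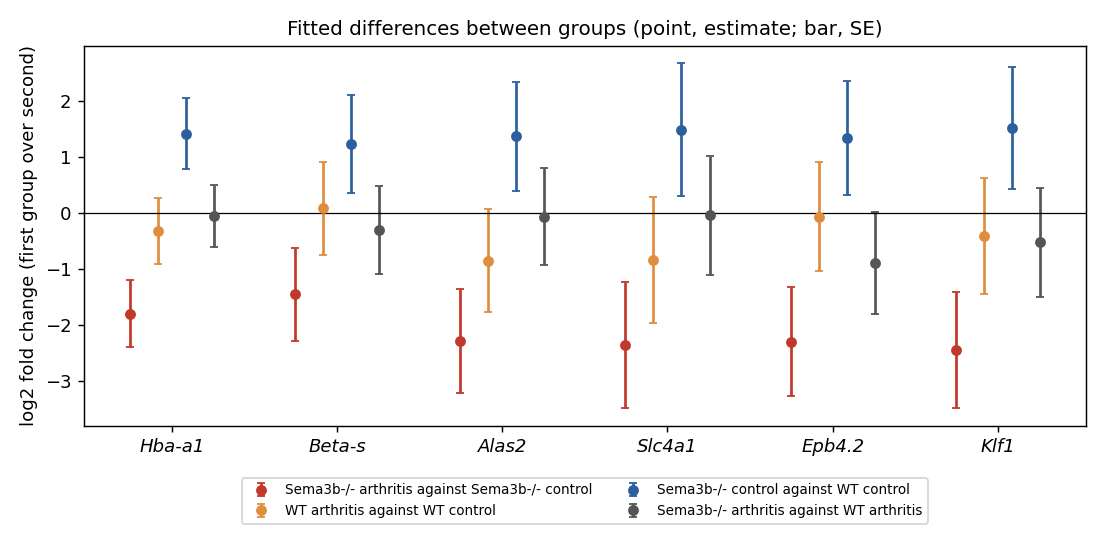
Fitted log2 fold changes (first group over second) of the 6 erythroid genes in 4 comparisons, with SE as bars; Hba-a1 comes from the fit without the filter on low values. The points for Sema3b-/- arthritis against Sema3b-/- control lie between -2.45 and -1.45, and no point passed the test.

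The spread within groups was wide for the members. The pooled SD within groups of log2(normalized count + 1) was 1.27 for Beta-s, 1.41 for Alas2, 1.57 for Epb4.2, 1.66 for Klf1 and 1.72 for Slc4a1, against a median of 0.40 over all genes tested. These SDs exceeded those of 92.3% (Beta-s) to 97.8% (Slc4a1) of genes tested. As a description of depth, Spearman's rho between a member's normalized count and total reads was -0.346 to -0.047 over 18 libraries.

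Across the 18 libraries the 5 members other than Hba-a1 varied together. Pearson's r over their 10 pairs was 0.833 to 0.969 and Spearman's rho 0.775 to 0.948. Permutation p, adjusted over the 15 pairs of the 6 members, was 2e-05 to 4e-05 for r and 3e-05 to 0.0003 for rho; 100000 permutations can give no raw p below 1e-05. Without the 2 libraries farthest from the median, r was 0.819 to 0.95. Within the 10 arthritis libraries r was 0.758 to 0.989, and within the 8 control libraries 0.927 to 0.989. The pairs with Hba-a1 had r of 0.687 to 0.842 and rho of 0.648 to 0.83, with adjusted p up to 0.002 and 0.004, on counts of at most 17 reads. Less RNA per erythroid cell and fewer erythroid cells in the sample cannot be told apart in such bulk libraries.

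The genes most like the members were found by correlating deviations from group means over 18 libraries, as a description. Of the 10 highest of 13804 genes, 8 are given here: Kel (r = 0.96), Mpo (0.926), Bpgm (0.918), Ltf (0.917), Itgb2l (0.916), Gfi1b (0.915), Camp (0.911) and Car2 (0.908). The median over all genes ranked was -0.035 and the 95th percentile 0.451. Kel, a blood group antigen, is a red cell membrane gene, and Bpgm makes the haemoglobin ligand bisphosphoglycerate. Mpo, Ltf and Camp encode neutrophil granule proteins made in the marrow.

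**Figure D3:**
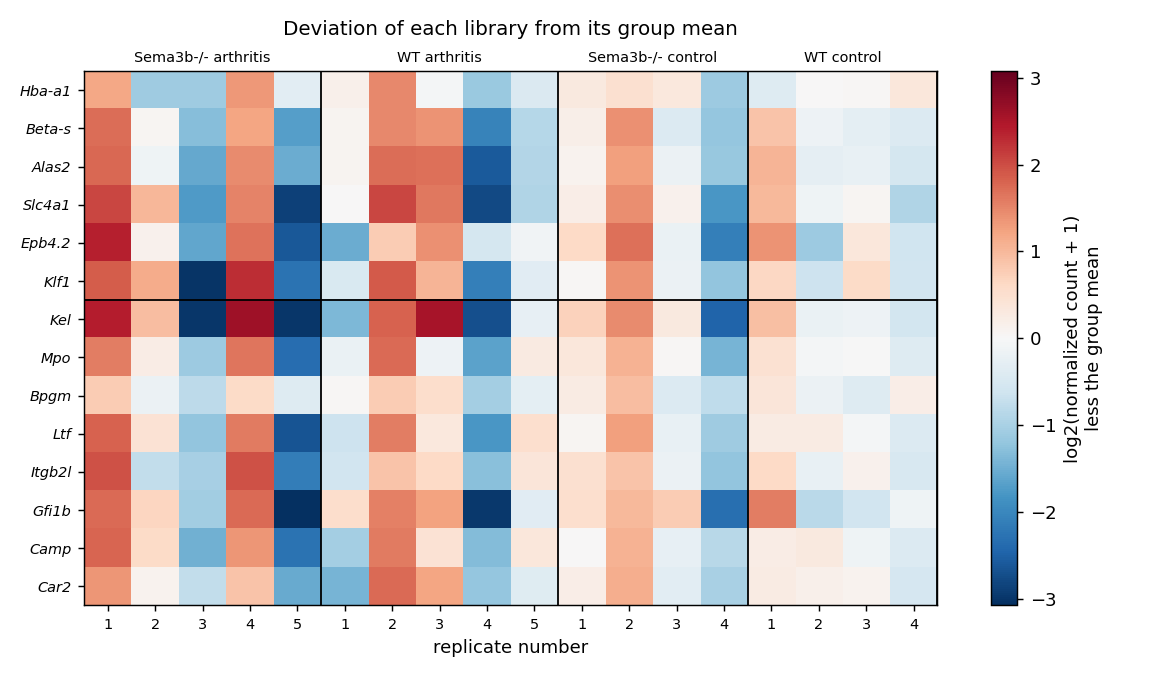
Deviation of log2(normalized count + 1) from the group mean in 18 libraries, for the 6 erythroid genes (above the line) and 8 of the 10 genes most like them (below it); red is above the group mean and blue below. Sema3b-/- arthritis 1 and 4 and WT arthritis 2 are red in nearly every row, and Sema3b-/- arthritis 5 and WT arthritis 4 blue.

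Lists of other cell types gave the same measure. The median r was 0.84 for 12 marrow neutrophil granule genes (0.735 to 0.926), 0.776 for 11 megakaryocyte and platelet genes and 0.724 for 9 B lineage genes. It was 0.647 for 16 red cell membrane genes, 0.634 for 15 erythroid maturation genes, 0.574 for 12 haem synthesis genes and 0.548 for 8 erythroid transcription factors. Other tissue lists were lower, with medians of 0.347 for bone, 0.298 for cartilage, 0.008 for skeletal muscle, -0.107 for epidermis and -0.224 for endothelium. Mature neutrophil genes had 0.223 and haemoglobin clearance genes -0.01. The summed marrow neutrophil granule genes ran from 1955 to 24756 normalized counts in Sema3b-/- arthritis, 4030 to 31292 in WT arthritis, 5311 to 23421 in Sema3b-/- control and 4476 to 7267 in WT control. Bone genes ran from 19539 to 51704, 18932 to 93547, 27936 to 333172 and 73045 to 80666 in the same groups. The part of marrow, bone or blood content in the members' spread was not tested.

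**Figure D4:**
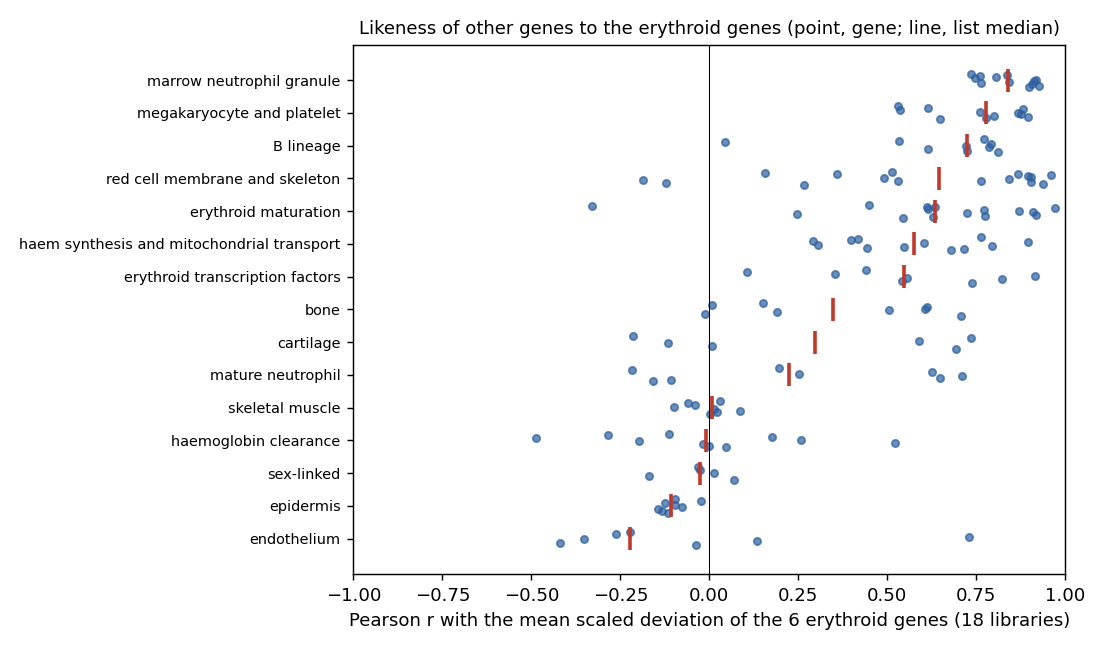
Pearson r over 18 libraries between each gene's deviations from its group means and the mean scaled deviation of the 6 erythroid genes; points are genes and red lines list medians. The marrow neutrophil granule list has the highest median (0.84) and the endothelium list the lowest (-0.224).

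Alas2 and Beta-s were then set against each other inside each library, which needs no size factor; this ratio and its tests were added after the values had been seen. Alas2 had 4.98, 4.18, 3.92, 5.69 and 5.26 reads per 1000 Beta-s reads in Sema3b-/- arthritis, against 8.16, 7.70, 9.995 and 8.64 in Sema3b-/- control. It had 4.05, 4.85, 5.02, 2.69 and 3.97 in WT arthritis, against 8.75, 7.18, 8.15 and 7.06 in WT control. All arthritis libraries (2.69 to 5.69) lay below all control libraries (7.06 to 9.995), in both genotypes.

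The ratio averaged 4.804 ± 0.740 in Sema3b-/- arthritis (SD, n = 5) and 8.62 ± 0.992 in Sema3b-/- control (SD, n = 4), and 4.12 ± 0.926 over the 5 WT arthritis libraries and 7.78 ± 0.805 over the 4 WT control libraries (SD). The differences were -3.82 and -3.67 reads per 1000. The two-sided exact permutation p was 0.0159 in each genotype, the smallest that 5 against 4 libraries can give. Adjusted over the 20 ratio tests made (5 members against Beta-s in 4 comparisons), both were 0.159, which does not pass. With so few of the 20 tests at a low p, 0.0159 cannot pass this adjustment, whatever the size of the difference. Between genotypes the ratio differed by 0.841 in controls (exact permutation p = 0.257, adjusted 0.428) and by 0.687 in arthritis (exact permutation p = 0.222, adjusted 0.428). Over the table, reads per Beta-s read lay lower in arthritis without overlap for 0.0362% of 13808 genes in Sema3b-/- mice and 0.717% in WT mice, and higher for 3.26% and 0.0507%. Alas2 was the 1 gene (0.00724%) for which all arthritis libraries of both genotypes lay below all control libraries, and 0 of the 51 other erythroid genes tested did so. Of these 51, Trim10 lay lower without overlap in Sema3b-/- mice alone. Beta-s ranged 24.4-fold between libraries, so a gene that does not vary with it is unlikely to separate per Beta-s read. The share over all genes therefore says little about how particular Alas2 is.

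Given by sex, the ratio was 3.92 to 5.69 in 5 female arthritis libraries against 7.06 to 8.75 in 6 female control libraries, and 2.69 to 5.26 in 5 male arthritis libraries against 7.70 to 9.995 in 2 male control libraries. Arthritis libraries titled Joint had 2.69 to 5.69 and the 3 others 3.97 to 4.98. Since no arthritis library overlapped a control library, the order within such a split is fixed by the whole and is no further evidence. The part of sex or of the titles in the ratio was not tested. Slc4a1 reads per 1000 Beta-s reads averaged 2.98 ± 1.58 in Sema3b-/- arthritis (SD, n = 5) and 5.27 ± 1.67 in Sema3b-/- control (SD, n = 4; exact permutation p = 0.143, adjusted 0.408). Over the 5 WT arthritis libraries they averaged 2.29 ± 0.785, and over the 4 WT control libraries 4.30 ± 1.03 (SD), with an exact permutation p of 0.0317, adjusted 0.212. The Slc4a1 groups overlapped in both genotypes. Since 64.7% of the Beta-s 3′ stretches also occur in Hbb-bt, the ratio depends on how such reads were counted, which was not tested.

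**Figure D5:**
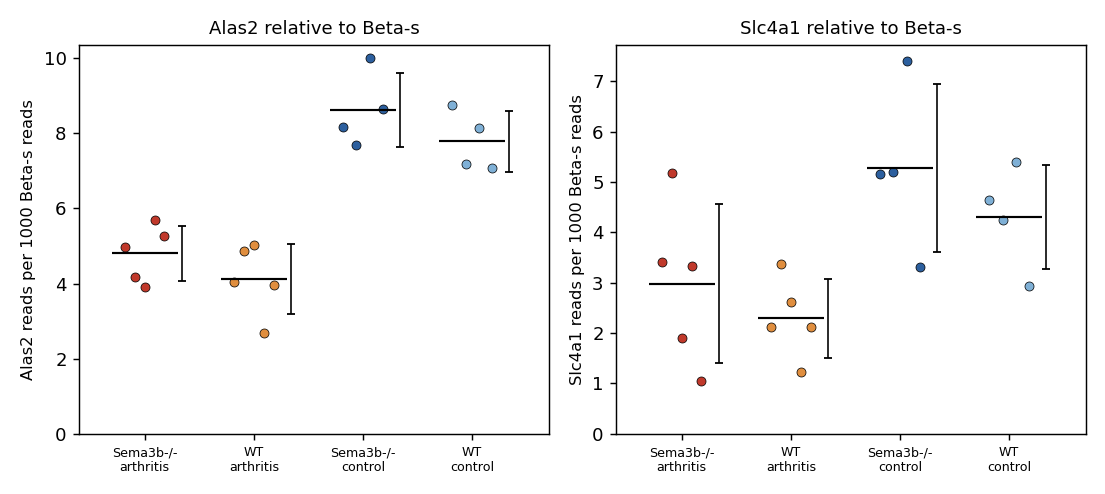
Alas2 (left) and Slc4a1 (right) reads per 1000 Beta-s reads in each of 18 libraries; lines are group means and bars SD. Alas2 lies between 2.69 and 5.69 in the arthritis libraries and between 7.06 and 9.995 in the control libraries, while the Slc4a1 groups overlap.

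Of 60 other erythroid genes in 5 lists (other globins, haem synthesis, red cell membrane, transcription factors and maturation), 56 were in the table and 51 passed the filter. In Sema3b-/- mice 11 fell in arthritis and 0 rose by limma, and the median log2 fold change was -0.82 against -0.01 over all genes tested; 5.55% of all genes were called lower and 6.84% higher. In WT mice 1 fell and 0 rose, with a median of -0.23 against -0.02, and 1.58% of all genes were called lower and 2.64% higher. In Sema3b-/- control against WT control 0 were called, with 8 of 51 at an unadjusted limma p under 0.05 (of all genes, 0.0145% and 5.87%). The median there was 0.64, against -0.007 over all genes tested. In Sema3b-/- arthritis against WT arthritis 0 were called, with 2 of 51 at an unadjusted limma p under 0.05 (of all genes, 0.0217% and 8.97%). Here the median was -0.05, against 0.002 over all genes tested. edgeR and DESeq2 also called 0 in both genotype comparisons, and in Sema3b-/- mice edgeR called 10 lower and DESeq2 11 lower and 1 higher. The shares of all genes that edgeR and DESeq2 called in each direction are not given here. The 11 genes became 4 with Joint-titled arthritis libraries alone, and 5 without Sema3b-/- control 1, 6 without Sema3b-/- arthritis 5 and 7 without Sema3b-/- arthritis 2, Sema3b-/- arthritis 3 or Sema3b-/- control 2. The 1 gene in WT mice was lost with a term for sex, and sex differs between the WT groups.

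Of 12 haem synthesis and transport genes, 2 fell in Sema3b-/- arthritis. Alad, the second enzyme of the pathway, averaged 48.5 ± 12.1 normalized counts in Sema3b-/- arthritis (SD, n = 5) and 111.7 ± 34.3 in Sema3b-/- control (SD, n = 4). It fell by 1.17 on the log2 scale (SE 0.23, limma adjusted p = 0.00444). Fech, which inserts the iron, fell by 0.95 (SE 0.18, limma adjusted p = 0.00421). Both passed under all 26 alternatives. In WT mice Alad differed by -0.45 and Fech by -0.03, with limma adjusted p of 0.267 and 0.950.

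Of 16 red cell membrane and skeleton genes, 5 fell in Sema3b-/- arthritis. Ank1, the ankyrin that ties band 3 to spectrin, fell by 2.03 on the log2 scale (SE 0.50, limma adjusted p = 0.0174). Tmod1, which caps the short actin filaments, fell by 2.21 (limma adjusted p = 0.0241), Epb4.9 (dematin) fell by 1.27 (limma adjusted p = 0.0420), Epb4.1 (protein 4.1) fell by 0.86 (limma adjusted p = 0.0485) and the water channel Aqp1, also made by endothelium, fell by 0.70 (limma adjusted p = 0.00697). Of the 26 alternatives Aqp1 passed under 26, Ank1 24, Tmod1 21, Epb4.9 12 and Epb4.1 8. None of the 16 was called in WT mice by limma, with 0 at an unadjusted p under 0.05, or by edgeR or DESeq2. By deviations from group means, the 5 genes varied with the members to unlike degrees. Their r was 0.904 for Epb4.1, 0.531 for Epb4.9, 0.514 for Aqp1, 0.265 for Ank1 and -0.187 for Tmod1. How far the falls of these genes come from red cells was not tested.

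Of 8 erythroid transcription factors, Zfpm1 (the GATA1 partner FOG1) fell by 2.35 on the log2 scale in Sema3b-/- mice (SE 0.33, limma adjusted p = 0.000793) and fell by 1.26 in WT mice (SE 0.33, limma adjusted p = 0.0386). The fall passed under all 26 alternatives in Sema3b-/- mice and under 16 in WT mice, where a term for sex gave a limma adjusted p = 0.109. It averaged 38.7 ± 14.0 normalized counts in Sema3b-/- arthritis against 203.5 ± 108.8 in Sema3b-/- control, and 49.99 ± 8.88 in WT arthritis against 122.3 ± 27.8 in WT control (SD, n = 5 in arthritis and n = 4 in control). In Sema3b-/- mice Zfpm1 lay at 15.1 to 52.3 in arthritis and 145.1 to 366.5 in control, and in WT mice at 42.3 to 60.6 and 81.9 to 142.6, without overlap. Ldb1 fell by 0.52 in Sema3b-/- mice (limma adjusted p = 0.0187) and passed under 22 alternatives. By deviations from group means, r with the members was 0.105 for Ldb1 and 0.554 for Zfpm1. Gata1 differed by -2.10 in Sema3b-/- mice and did not pass (SE 0.79, limma adjusted p = 0.0887). Of 15 maturation genes, Bpgm fell by 1.42 (limma adjusted p = 0.0327) and Xpo7, an exporter needed as the nucleus condenses, fell by 0.69 (limma adjusted p = 0.0293) in Sema3b-/- mice, and each passed under 19 alternatives.

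Of 10 genes tested that clear haemoglobin and store its iron, 4 rose in Sema3b-/- arthritis, against 6.84% of all genes, and 2 in WT arthritis, against 2.64%. In each genotype 3 of the 10 had a log2 fold change below 0. The 4 became 2 without Sema3b-/- arthritis 1, 2 or 5 or Sema3b-/- control 3. The 2 became 4 without WT arthritis 1 or 2, 0 without WT control 1, and 1 without each of the other WT libraries. Hp (haptoglobin, which binds free haemoglobin) rose by 2.18 on the log2 scale in Sema3b-/- mice (SE 0.58, limma adjusted p = 0.0250) and by 2.49 in WT mice (SE 0.58, limma adjusted p = 0.0279). Hmox1, which breaks down haem, rose by 1.955 in Sema3b-/- mice (SE 0.34, limma adjusted p = 0.00238) and by 1.62 in WT mice (SE 0.34, limma adjusted p = 0.0143). With a term for sex neither passed in WT mice (limma adjusted p = 0.252 for Hp and 0.159 for Hmox1), while in Sema3b-/- mice Hmox1 passed under all 26 alternatives and Hp under 18. The ferritin chains Ftl1 and Fth1 rose in Sema3b-/- mice by 1.05 and 0.64 (limma adjusted p = 0.0145 and 0.0426), and passed under 24 and 14 of the 26 alternatives.

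Marker lists of the other tissues moved with these groups in part. In Sema3b-/- arthritis 3 of 8 bone genes fell (Bglap fell by 3.604 on the log2 scale), as did 3 of 9 B lineage genes, 1 of 6 cartilage genes (Col2a1 fell by 3.05), 1 of 11 megakaryocyte genes (Gp1bb fell by 1.65) and 2 of 7 endothelial genes (Vwf fell by 0.75), all at a limma adjusted p under 0.05, against 5.55% of all genes called lower. Some genes of these lists had a log2 fold change above 0 in the same comparison. They were 1 of 6 cartilage genes (Sox9, 0.34), 1 of 11 megakaryocyte genes (Pf4, 0.14) and 2 of 7 endothelial genes (Kdr, 0.27, and Cdh5, 0.01). Mature neutrophil genes rose for 2 of 8 (Cxcr2 by 1.28), against 6.84% called higher. In WT arthritis 1 of 8 bone genes fell (Bglap fell by 2.50) and 1 of 8 mature neutrophil genes rose (Cxcr2 by 1.57), against 1.58% and 2.64% of all genes. Of these genes, Bglap passed under all 26 alternatives in Sema3b-/- mice and 14 in WT mice, Gp1bb under 19, Col2a1 16, Vwf 9, and Cxcr2 under 8 in Sema3b-/- mice and 15 in WT mice. With one library left out the counts in Sema3b-/- mice ran from 1 to 6 for bone (1 without Sema3b-/- control 3, 6 without Sema3b-/- control 4) and from 1 to 7 for B lineage (7 without Sema3b-/- arthritis 4, 1 without Sema3b-/- arthritis 2 or 5 or Sema3b-/- control 2 or 3). They ran from 0 to 2 for cartilage, megakaryocyte, endothelial and mature neutrophil genes, each changed by the removal of any of 7 or more libraries. In WT mice they ran from 0 to 1 for bone and 0 to 5 for mature neutrophil genes (5 without WT arthritis 1). With Joint-titled arthritis libraries alone 1 bone gene and no gene of the other 5 lists was called in Sema3b-/- mice, and none of the 6 lists in WT mice; with the replicate block no B lineage gene was called, and DESeq2 called 6 bone and 6 B lineage genes lower in Sema3b-/- mice. Of 12 marrow neutrophil granule genes limma called 0 in either genotype, with 0 and 1 at an unadjusted p under 0.05, edgeR called 0, and DESeq2 called 2 higher in WT mice. Of 8 muscle and 8 epidermis genes limma and edgeR called 0, and DESeq2 called 4 and 1 lower in Sema3b-/- mice, with 5 and 1 at an unadjusted limma p under 0.05 in Sema3b-/- mice and 1 and 3 in WT mice. In these lists the most abundant genes had log2 fold changes in Sema3b-/- mice of -1.32 for Ngp and -0.24 for Camp (granule), -1.47 for Tnnt3 and -1.88 for Pvalb (muscle), and -1.81 for Krt2 and -2.31 for Krt1 (epidermis), with limma adjusted p from 0.117 to 0.869. Of the 12 granule genes, 8 had a log2 fold change below 0 in Sema3b-/- mice and 4 above it (median -0.22). In WT mice all 12 lay above 0 (median 0.86), whereas the median of the erythroid members there was -0.42. The part of tissue content in the erythroid differences was not tested.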

How the data were processed

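CEL-seq libraries of total RNA from mouse forepaws were sequenced with paired ends, per the labels. BWA, DESeq2 1.32 and mm10 are named in the submitters' processing notes. The counting tool, annotation, and any use of strand or molecular barcodes were not given in the sources used here. One table deposited by the authors holds, per gene and library, a signal, the count over that library's size factor, called normalized count here. Separate tables, 1 per comparison and 4 in all, hold the authors' log2 fold changes and p-values. Whole reads were recovered within 0.02 of a read for 100% of values. Replicate numbers follow the titles; the titles of 2 Sema3b-/- control libraries share the number 3, so the later one has number 4. In the table, the column of Sema3b-/- arthritis 5 ends in Ct, whereas its title and treatment label say arthritis, which was used.

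The test took the 13809 of 18585 genes that reached a normalized count of 10 in 4 or more libraries. limma-trend (limma 3.58.1, R 4.3.3) with robust empirical Bayes was run on log2(normalized count + 1), pseudocount 1, with 4 group means over 18 libraries. It was the main test because the table holds normalized counts and not raw counts. Genes were called where the p, adjusted by Benjamini-Hochberg over all genes tested, was under 0.05. The test was tried on simulated data whose spread between libraries was set below that of the members. That trial therefore does not show how often it would find a change in genes as variable as the members. Count models on the recovered reads (edgeR 4.0.16 and DESeq2 1.42.0), 6 other settings and the removal of each of the 18 libraries in turn made 26 alternatives. On recovered reads edgeR called 1623 genes in Sema3b-/- arthritis against Sema3b-/- control and 742 in WT arthritis against WT control. Ratios of member reads within a library were compared by exact permutation. They were added after the data were seen, as 20 tests (5 members over Beta-s in 4 comparisons), together with their values without single libraries and with Joint-titled arthritis libraries alone. The alternatives for genes outside the members were likewise added later. The members and lists were chosen with earlier results of these data known. The named genes are the members, the called genes of each list (4 with the lowest p at most, with Epb4.1 and Gata1 added after their values were seen) and the 10 most like the members; 3 genes under this rule are not reported here. Depth sets a floor of 3 reads per library, which covers counting error only. Within groups, 32 pairs of libraries differed by 10.1 to 209.9 chi-square per degree of freedom, so none was a copy.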

Additional observations from a re-analysis of the deposited data

Results flagged for a closer look

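A library stood apart from the others of its group in 3 of the 24 member and group combinations tested, by the gap to its nearest neighbour as a share of the group's range. By chance about 1 in 20 of the combinations tested would be flagged if values were normally spread. The gaps were taken on normalized counts without logarithms. Members vary together, so the combinations are not independent. Hba-a1 had 5.23 normalized counts in WT arthritis 2, from 12 reads, above the other 4 WT arthritis libraries. Beta-s had 50165 normalized counts in WT control 1, against 20639 to 24649 in the other 3. Alas2 had 438.8 normalized counts in WT control 1, against 146 to 183 in the other 3. The ratio of Alas2 to Beta-s in that library, 8.75 reads per 1000, was within the control range of 7.06 to 9.995.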

How the results depend on the processing

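No member was called in any of the 5 contrasts under any of the 26 alternatives. Of 650 values of members under alternatives, 621 kept their direction, 29 turned round and 0 newly passed the threshold. In Sema3b-/- arthritis against Sema3b-/- control the adjusted p of Alas2 ran from 0.0745 to 0.233, of Epb4.2 from 0.0595 to 0.279 and of Klf1 from 0.0671 to 0.265, with no change of sign. In WT arthritis against WT control the log2 fold change of Klf1 was 0.12 with edgeR and 0.062 with DESeq2. With one library left out in turn, Beta-s ran from -0.29 to 0.59, Epb4.2 from -0.44 to 0.39 and Klf1 from -0.89 to 0.11. In Sema3b-/- arthritis against WT arthritis Slc4a1 was 0.02 with edgeR and 0.044 with DESeq2, and Klf1 0.013 with DESeq2. With one library left out, Beta-s ran from -0.82 to 0.11, Alas2 from -0.72 to 0.36, Slc4a1 from -0.74 to 0.67 and Klf1 from -1.09 to 0.23. The cause was not tested.

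Counts over the whole table moved more. For Sema3b-/- arthritis against Sema3b-/- control, 1710 genes became 396 with Joint-titled arthritis libraries alone, and 975 to 1913 with one library left out (975 without Sema3b-/- arthritis 2, 995 without Sema3b-/- control 3, 1083 without Sema3b-/- arthritis 5). For WT arthritis against WT control, 582 became 1279 with DESeq2, 133 with a term for sex, 229 with Joint-titled libraries, and 149 to 1112 with one library left out (1112 without WT arthritis 2, 300 without WT arthritis 3, 189 without WT arthritis 4, 285 without WT arthritis 5, and 188, 227, 149 and 263 without WT control 1, 2, 3 and 4). For Sema3b-/- control against WT control, 2 became 1 without the filter, 5 with DESeq2, 0 with a term for sex and 0 to 3 with one library left out. For Sema3b-/- arthritis against WT arthritis, 3 became 94 with DESeq2, 0 with Joint-titled libraries and 2 to 6 with one library left out. For the interaction, 0 became 6 with DESeq2 and stayed 0 with each library left out. Among other erythroid genes, the 11 that fell in Sema3b-/- mice became 4 with Joint-titled libraries and 5 to 12 with one library left out, and the 1 in WT mice became 2 with DESeq2, 0 with Joint-titled libraries or a term for sex, and 0 to 2 with one library left out. Of haemoglobin clearance genes, the 4 that rose in Sema3b-/- mice became 1 with Joint-titled libraries and 2 to 4 with one library left out. The 2 in WT mice became 4 with DESeq2, 1 with Joint-titled libraries, 0 with a term for sex, and 0 to 4 with one library left out.

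Replicate numbers do not pair the libraries: deviations of 25 same-numbered pairs correlated at -0.658 to 0.414, 7 of them over 0.1, and 3 of 18 libraries were closest to their own number. With the replicate block the counts were 1020, 196 and 1 for the first 3 comparisons, 4 and 0 for other erythroid genes and 1 and 0 for haemoglobin clearance genes in Sema3b-/- and WT mice, and Epb4.2 in WT arthritis against WT control was 0.27.

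The Alas2 to Beta-s difference ran from -4.13 to -3.36 reads per 1000 in Sema3b-/- mice and from -3.91 to -3.31 in WT mice with one library left out (exact permutation p 0.0286 to 0.0357). With Joint-titled arthritis libraries alone it was -3.67 in Sema3b-/- mice, where the exact permutation p of 0.0571 is the smallest that 3 against 4 libraries can give. TMM scaling shifted the median of all genes by at most -0.024 on the log2 scale. Epb4.2, Klf1 and Hba-a1 rest on few reads in several libraries, which limits their precision.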
